A study of Mus musculus with 6 samples.

Results

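RNA levels of 47 imprinted genes were compared in mouse gliomas and in cultures of their glioma-initiating cells (GICs), the cells that can seed such a tumor again. The members came from a list of known mouse imprinted genes and were found by symbol in the 46951 gene rows of the tumor table and the 46952 rows of the GIC table; all 47 were found in each. The series asked which genes mark host age. A mouse GIC line was grown in the brains of C57BL/6 mice, tumors were taken at symptoms, and new GIC cultures were derived from the tumors. The tumor groups were Young, Old, and an old group labelled NMN-before-Tumor, called NMN-before here, all with the cell line given as ms7080. The GIC groups were Young, Old (titled NT) and NMN-before-Tumor, with the cell line given as 7080X1. NMN is not spelled out in the labels and usually stands for nicotinamide mononucleotide, from which cells make NAD+. The labels used here give no NMN dose, no age in months and no number of mice per library. The 3 tumors carry the same cell line label, as do the 3 GIC cultures, and the tumors are bulk tissue in which injected cells and host brain are mixed.

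Genomic imprinting is the silencing of a gene on the chromosome from 1 parent, set by DNA methylation laid down in the egg or sperm. Imprinted genes sit in clusters, each under an imprinting control region, and many clusters pair a protein-coding gene with a non-coding RNA made from the other parental chromosome. In the brain, imprinted genes such as Peg3, Magel2, Ndn and Meg3 are known for roles in neurons, feeding and behavior, while H19, Igf2, Igf2r and Grb10 are known for control of growth. FPKM values add up both alleles and all isoforms of a row, so the use of the parental alleles was not measured here.

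Promoter sequences are shown for 4 members that were among those furthest apart between libraries, chosen after their values were seen, because differentially methylated regions often lie at imprinted promoters. RefSeq windows (GRCm38.p6) were available for 40 of the 47 members, in 60 windows. The 250 bases before the transcription start were searched on both strands for TGCCGC, the hexamer known to be bound by ZFP57, which keeps imprints methylated; no second motif was searched. Capitals mark a match to the hexamer or to its reverse complement GCGGCA. The Meg3 window spans chr12:109540746-109540995 (plus strand), the Nnat window chr2:157559828-157560077 (plus), the Nap1l5 window chr6:58907127-58907376 (minus) and the Slc38a4 window chr15:97055957-97056206 (minus).
Meg3: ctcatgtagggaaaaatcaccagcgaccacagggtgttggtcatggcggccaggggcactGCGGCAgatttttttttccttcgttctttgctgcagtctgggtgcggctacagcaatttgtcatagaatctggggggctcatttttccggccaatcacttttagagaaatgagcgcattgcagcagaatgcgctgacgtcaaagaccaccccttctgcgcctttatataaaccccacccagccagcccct
Nnat: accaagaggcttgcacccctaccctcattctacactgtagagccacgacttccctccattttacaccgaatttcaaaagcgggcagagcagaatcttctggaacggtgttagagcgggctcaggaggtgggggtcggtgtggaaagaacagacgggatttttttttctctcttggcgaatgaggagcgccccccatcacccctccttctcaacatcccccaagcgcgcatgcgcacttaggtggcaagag
Nap1l5: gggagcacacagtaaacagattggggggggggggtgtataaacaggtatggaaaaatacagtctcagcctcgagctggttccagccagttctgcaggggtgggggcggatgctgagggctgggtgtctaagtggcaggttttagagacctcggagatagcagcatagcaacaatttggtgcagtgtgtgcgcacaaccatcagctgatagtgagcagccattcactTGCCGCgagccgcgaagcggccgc
Slc38a4: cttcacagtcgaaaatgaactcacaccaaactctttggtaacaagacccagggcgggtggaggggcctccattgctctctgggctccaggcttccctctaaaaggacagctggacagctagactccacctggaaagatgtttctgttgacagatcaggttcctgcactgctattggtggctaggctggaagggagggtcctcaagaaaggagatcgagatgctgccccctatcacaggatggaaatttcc
The most upstream window of each of the 4 members is shown. Meg3 and Slc38a4 had further windows, none with the hexamer. In the windows shown, the hexamer was found once in Meg3 and once in Nap1l5 and not in Nnat or Slc38a4. These windows held 10 CpG dinucleotides in Meg3, 12 in Nnat, 10 in Nap1l5 and 3 in Slc38a4. Of the 60 member windows, 11 held the hexamer (18.3%), against 8.68% of all 32851 windows of the same length. Some windows of a gene overlap, as the Mest windows starting at 30737800 and 30737803 do, so sites can count more than once. By member, 10 of the 40 held the hexamer in at least 1 window. The hexamer contains a CpG, and the windows were not matched for CpG content. The median member window had 10 CpG and 55.8% GC, and the median of all windows had 6 CpG and 52.4% GC.

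Some members are host genes of microRNAs. The rows of the 47 members also named 13 microRNA genes, all matched in RefSeq, with 24 mature sequences and as many different seeds (bases 2 to 8). Those of the H19 and Meg3 rows, which are described below, are given with the seed in capitals.
miR-675-5p (H19): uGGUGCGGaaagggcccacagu
miR-675-3p (H19): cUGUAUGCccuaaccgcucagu
miR-770-5p (Meg3): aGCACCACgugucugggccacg
miR-770-3p (Meg3): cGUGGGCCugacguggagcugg
miR-1906 (Meg3): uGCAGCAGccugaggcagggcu
The FPKM of these rows measures the long host RNA, and the mature microRNAs were not measured.

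Each of the 6 groups is 1 library, so each difference compares 2 libraries and has no replicate check. Depth, recovered from the step size of low FPKM values, was 11.3 to 18.8 M fragments (M for mega) in tumors and 9.66 to 12.7 M in GICs. Fragment counts and counting intervals given below use the median annotated transcript length of a gene. For genes with several transcripts they are approximate, as a longer transcript would give more fragments and narrower intervals. Differences are given as log2 of FPKM plus 1, among rows that reached 1 FPKM in at least 1 library of a table, and 2-fold is a log2 difference of at least 1. This filter left 14335 rows and 38 members in tumors, and 12809 rows and 29 members in GICs. The tables were normalized separately, so tumor and GIC levels are set side by side only. In bulk samples, fewer cells of a type and less RNA per cell cannot be told apart. The summed level of 9 neuron markers was 179 FPKM in the young, 223 in the old and 482 in the NMN-before tumor, and between 7.79 and 10.7 FPKM in the 3 GICs.

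In tumors, the imprinted genes that stood furthest apart were higher in the old or NMN-before library than in the young one. Old minus young, 3 of 38 members were 2-fold higher (Meg3, Peg3 and Nnat), where 1.6% of all rows were, and 0 were 2-fold lower, where 1.0% of rows were. NMN-before minus old, 1 member was 2-fold higher (H19; 1.86% of rows) and 0 were 2-fold lower (1.25% of rows). NMN-before minus young, 4 members were 2-fold higher (H19, Meg3, Rian and Nnat; 2.79% of rows) and 0 were 2-fold lower (0.977% of rows). Each library enters a pair of these comparisons: Meg3 and Nnat were called in both that contain the young tumor, and H19 in both that contain the NMN-before tumor. The median member difference in tumors was 0.07, 0.03 and 0.06 in the order given, against -0.01, 0.01 and -0.01 over all rows. Most members were close between libraries: 32, 33 and 28 of 38 lay within 0.5 log2 units, against 88.1%, 85.6% and 84.5% of all rows.

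In GIC cultures, every member 2-fold apart was so in a comparison with the NMN-before library, and Slc38a4 was the 1 member 2-fold apart from both other libraries. Old minus young, 0 of 29 members were 2-fold higher (1.23% of rows) and 0 were 2-fold lower (1.58% of rows). Counts of 0 among 29 are near these shares and depend on the cutoff. Ndn (0.92), Peg3 (0.85), Phlda2 (0.84) and H19 (-0.84) lay just under the rule, and each passed it with a pseudocount of 0.1. NMN-before minus old, 2 were 2-fold higher (Cd81 and Tssc4; 3.26% of rows) and 2 were 2-fold lower (Phlda2 and Slc38a4; 2.3% of rows). NMN-before minus young, 2 were 2-fold higher (Ndn and Nap1l5; 3.58% of rows) and 2 were 2-fold lower (H19 and Slc38a4; 3.04% of rows). The median member difference was -0.01, 0.04 and 0.10, against 0.01, 0.00 and 0.00 over all rows. Within 0.5 log2 units lay 24, 19 and 19 of 29 members, against 85.8%, 75.0% and 73.2% of all rows.

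**Figure D1:**
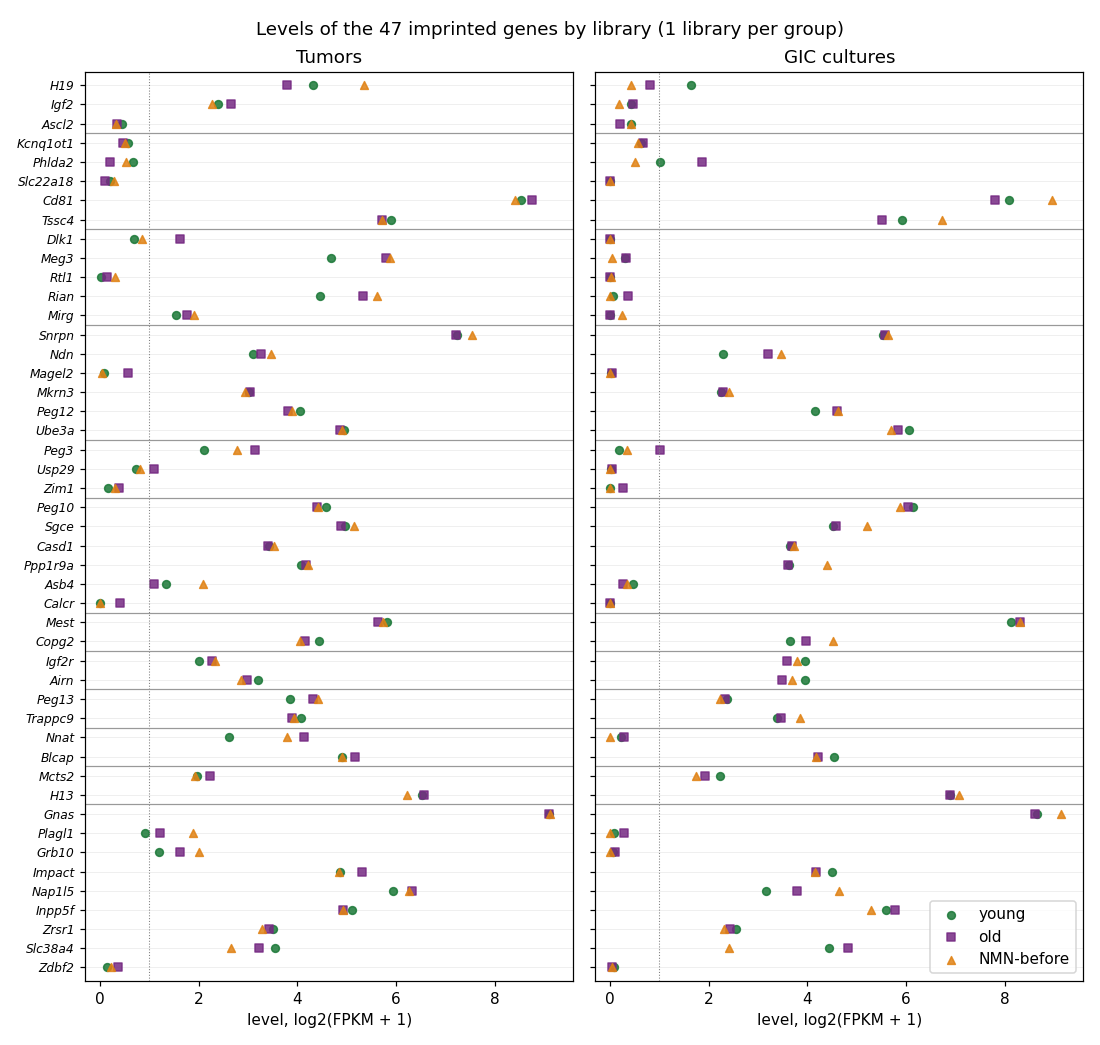
Level of each of the 47 imprinted genes, as log2(FPKM + 1) on the horizontal axis, in the 3 tumors (left) and the 3 GIC cultures (right); each point is 1 library, horizontal lines separate imprinted domains, and the dotted line marks 1 FPKM. The Dlk1-Meg3 members and Nnat lie above the dotted line in at least 1 tumor, other than Rtl1, and below it in all 3 GICs.

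The Dlk1-Meg3 domain on chromosome 12 encodes non-coding RNAs on the maternal chromosome and the proteins DLK1 and RTL1 on the paternal one. Meg3, a long non-coding RNA known to restrain growth (ENSMUSG00000021268, chr12:109541001-109571726, plus strand), was at 24.6 FPKM in the young, 55.0 in the old and 57.8 in the NMN-before tumor. Rian, a host of small nucleolar RNAs and microRNAs, was at 20.9, 39.3 and 48.2 FPKM in the same order. Mirg, a microRNA host, was at 1.91, 2.40 and 2.75 FPKM. All 3 maternal RNAs were thus lowest in the young and highest in the NMN-before tumor; for Mirg, the 95% counting interval of each ratio between libraries includes 1. Meg3 differed by 1.13 log2 units between old and young and by 1.20 between NMN-before and young, and Rian by 0.88 and 1.17. The ratio of Meg3 to Rian FPKM stayed between 1.18 and 1.40 in the 3 tumors. The Meg3, Rian and Mirg rows each name further genes that overlap them, small RNA genes among them, so a row's value cannot be given to 1 gene alone.

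Of the paternal genes of the domain, Dlk1 had another order, and Rtl1, under the filter, had the order of the maternal RNAs. Dlk1, a membrane protein that holds back differentiation, was at 0.612 FPKM in the young, 2.08 in the old and 0.809 in the NMN-before tumor, highest in the old one. Its FPKM was 3.40 times as high in the old as in the young tumor, but its log2 difference was 0.93, since the added 1 FPKM shrinks differences of low genes. Rtl1, a retrotransposon-derived gene known in the placenta, was at 0.0107, 0.0995 and 0.240 FPKM, or 1, 7 and 28 fragments. The NMN-before to young ratio of Rtl1 was 22.5, with a 95% counting interval from 3.69 to 913; all 3 levels were under the filter of 1 FPKM. The Rtl1 row also names Mir3071, and the sources used here do not say whether counting used strand. The 10 other rows within 1 Mb of the domain that passed the filter had median differences of -0.04 (old minus young), 0.09 (NMN-before minus old) and 0.15 (NMN-before minus young), and 0 of them was 2-fold apart.

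In GICs the domain was nearly silent. Meg3 was at 0.233, 0.243 and 0.0214 FPKM in young, old and NMN-before GICs, and Rian at 0.0465, 0.279 and 0. Mirg was listed at 0 in the young and old GICs and at 0.181 in the NMN-before GICs, Dlk1 was listed at 0 in all 3, and the highest Rtl1 value was 0.0165. Beside this, 3 of the 9 neuron markers passed the filter in GICs, against 9 of 9 in tumors. In tumors the neuron markers had median differences of 0.34 (old minus young, 8 of 9 higher), 0.86 (NMN-before minus old, 8 of 9) and 1.37 (NMN-before minus young, 9 of 9), and none of the 9 was at 0 in a tumor. The part of neurons in the Meg3 and Rian levels was not tested.

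**Figure D2:**
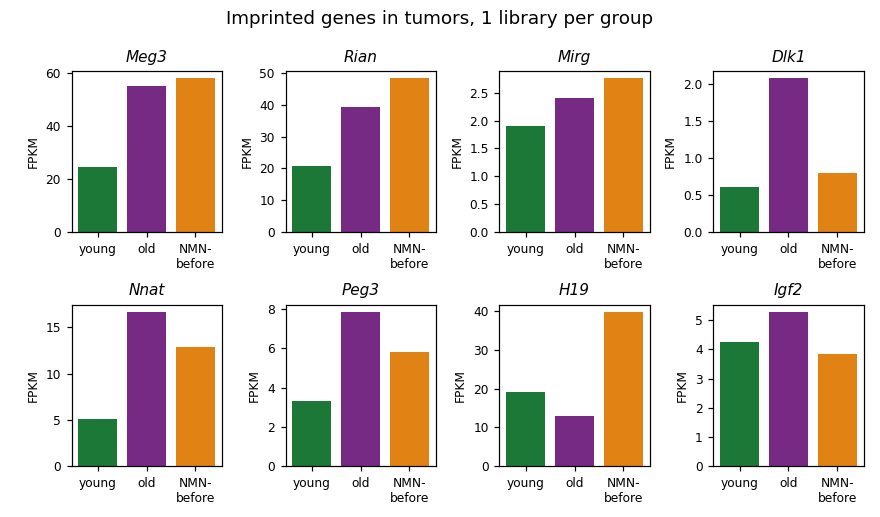
FPKM of 8 imprinted genes in the young, old and NMN-before tumors (vertical axis from 0, each bar 1 library, no error bars because there are no replicates). Meg3 and Rian are lowest in the young tumor at 24.6 and 20.9 FPKM, Dlk1, Nnat, Peg3 and Igf2 are highest in the old tumor, and H19 is highest in the NMN-before tumor at 39.8 FPKM.

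Nnat encodes neuronatin, a small membrane protein of the endoplasmic reticulum in developing neurons, and is transcribed from the paternal chromosome. It lies inside the Blcap gene on chromosome 2, on the opposite strand (Nnat chr2:157560078-157562522, plus strand; Blcap chr2:157556362-157571274, minus strand). Nnat was at 5.09 FPKM in the young, 16.6 in the old and 12.9 in the NMN-before tumor, so the young tumor was lowest. Its log2 difference was 1.53 for old minus young, the furthest of the 38 members in that comparison, and 1.19 for NMN-before minus young. Blcap, its host gene, was at 28.9, 34.8 and 29.0 FPKM, differences of at most 0.26 log2 units. The 28 neighbors within 1 Mb had a median of -0.06 for old minus young, with 1 of them 2-fold higher, the row that holds Snhg11. In GICs Nnat was at 0.159, 0.208 and 0 FPKM, while Blcap stood at 22.3, 17.6 and 17.2 FPKM.

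Peg3 encodes a zinc-finger protein expressed from the paternal chromosome and known for roles in growth and maternal behavior. It was at 3.31 FPKM in the young, 7.85 in the old and 5.82 in the NMN-before tumor, a log2 difference of 1.04 for old minus young. Usp29, a ubiquitin protease gene that shares the Peg3 control region, was at 0.652, 1.15 and 0.759 FPKM. Zim1, the maternally expressed zinc-finger gene of the domain, was at 0.123, 0.304 and 0.234 FPKM. All 3 values were highest in the old and lowest in the young tumor, but Zim1 stayed under the filter and its old to young ratio has a counting interval from 0.713 to 12.1, which includes 1. For Usp29 the NMN-before to young interval, 0.672 to 2.04, includes 1 as well. The 15 neighbors had a median difference of -0.02 for old minus young with 0 past 2-fold. In GICs, Peg3 was at 0.127 FPKM in the young, 1.03 in the old and 0.276 in the NMN-before library, the same order of libraries as in tumors, at levels at or under about the filter. Its old to young interval in GICs was 3.58 to 24.6. The NMN-before to young interval there, 0.718 to 7.30, includes 1, so the order of these libraries is not settled.

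The Igf2-H19 domain on chromosome 7 pairs Igf2, a paternally expressed growth factor of embryos, with H19, a maternally expressed non-coding RNA. H19 (ENSMUSG00000000031, chr7:142575529-142578143, minus strand; its row also names Mir675) was at 19.1 FPKM in the young, 12.9 in the old and 39.8 in the NMN-before tumor. Igf2 was at 4.25, 5.27 and 3.83 FPKM in the same order. Igf2 rests on about 52, 49 and 58 fragments at its median annotated length of 958 bases. At that length, the 95% counting interval of each of its ratios between libraries includes 1. The intervals were 0.831 to 1.89 for old to young, 0.476 to 1.06 for NMN-before to old and 0.601 to 1.32 for NMN-before to young. The H19 to Igf2 ratio was 4.49 in the young, 2.45 in the old and 10.4 in the NMN-before tumor. H19 differed by 1.55 log2 units for NMN-before minus old and by 1.02 for NMN-before minus young. Its 17 neighbors had medians of 0.06 and 0.08 in these comparisons, with 0 of them 2-fold higher and 1 of them 2-fold lower in each.

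Of 6 fibroblast markers, 4 had the same order as H19 in the tumors (Dcn, Lum, Col1a1 and Col1a2). Col3a1 was highest in the young tumor (8.95, 0.761 and 7.82 FPKM), and Pdgfrl was highest in the old one (4.51, 8.56 and 4.47 FPKM). The 6 genes summed to 24.9 FPKM in the young, 13.7 in the old and 28.9 in the NMN-before tumor, with 4 of 6 being 2-fold higher in NMN-before minus old and 3 of 6 being 2-fold lower in old minus young; none was at 0. The part of such cells in the H19 level was not tested. In GICs, H19 was at 2.13, 0.747 and 0.342 FPKM and the fibroblast markers summed to 11.8, 5.28 and 3.93 FPKM, both highest in the young and lowest in the NMN-before library. Of the 6 markers, 3 passed the filter there, and Col3a1 alone gave 7.73, 2.85 and 1.28 FPKM of the sum. Col3a1, Col1a2 and Pdgfrl had the order of H19, while Col1a1 and Dcn were lowest in the old GICs. Lum was listed at 0 in the old and NMN-before GICs. Igf2 reached at most 0.376 FPKM in GICs. Ascl2, a transcription factor of the placenta, was under 1 FPKM in all 6 libraries.

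The neighboring Kcnq1ot1 domain held the 2 members that were 2-fold higher in NMN-before than in old GICs. Cd81, a tetraspanin of the cell surface, was at 273 FPKM in the young, 223 in the old and 500 in the NMN-before GICs. Tssc4, whose start lies close to the end of Cd81 on the same strand (Cd81 chr7:143052739-143067934, Tssc4 chr7:143069249-143071093), was at 59.2, 44.7 and 105 FPKM. Both are known to be imprinted in the placenta rather than in other tissues. Both were lowest in the old and highest in the NMN-before GICs, with log2 differences of 1.16 and 1.22 for NMN-before minus old. In tumors Cd81 was at 370, 430 and 340 FPKM and Tssc4 at 58.4, 51.8 and 51.4 FPKM, differences of at most 0.34 log2 units.

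The other 3 members of that domain were low. Phlda2, a maternally expressed gene that limits placental growth, was at 1.03 FPKM in the young, 2.64 in the old and 0.412 in the NMN-before GICs. These levels rest on about 3, 6 and 1 fragments at the median annotated length of 376 bases. At that length, the NMN-before to old ratio of 0.156 has a 95% counting interval from 0.00362 to 1.37, which includes 1. Kcnq1ot1, the long non-coding RNA that silences the domain on the paternal chromosome, was between 0.377 and 0.578 FPKM over all 6 libraries. Slc22a18, a transporter gene, was listed at 0 in all 3 GICs and was under 1 FPKM in all 3 tumors. The 15 neighbors of the domain in GICs had a median of 0.03 for NMN-before minus old, with 1 being 2-fold higher and 2 being 2-fold lower.

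**Figure D3:**
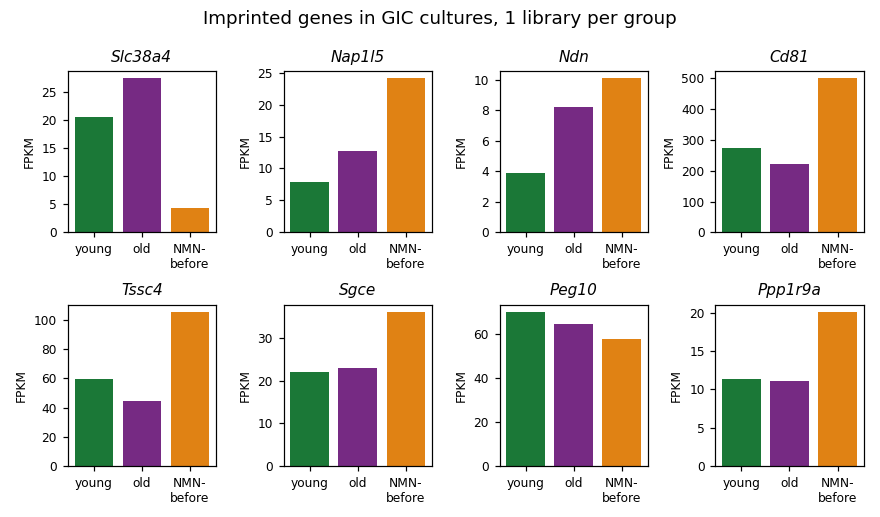
FPKM of 8 imprinted genes in the young, old and NMN-before GIC cultures (vertical axis from 0, each bar 1 library, no error bars because there are no replicates). Slc38a4 is lowest in the NMN-before library at 4.33 FPKM, and Nap1l5, Ndn, Cd81, Tssc4, Sgce and Ppp1r9a are highest there.

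Slc38a4 showed the furthest difference of any member. It encodes a sodium-coupled neutral amino acid transporter, expressed from the paternal chromosome (ENSMUSG00000022464, chr15:96994820-97055956, minus strand). It was at 20.6 FPKM in the young, 27.5 in the old and 4.33 in the NMN-before GICs, log2 differences of -2.42 for NMN-before minus old and -2.02 for NMN-before minus young. In tumors it was at 10.7, 8.29 and 5.30 FPKM, so NMN-before was lowest there too, with differences of -0.56 and -0.90. Its 13 neighbors in GICs had medians of -0.03 and 0.04 in these comparisons, and 1 of them, Amigo2, was also 2-fold lower in both. The tumor and GIC tables share no library, but new GIC cultures were derived from the tumors, so the tables may not be independent.

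Nap1l5, a paternally expressed gene of the nucleosome assembly protein family that lies within Herc3 on chromosome 6, was the member furthest up in NMN-before minus young GICs. It was at 7.93 FPKM in the young, 12.7 in the old and 24.1 in the NMN-before GICs, a log2 difference of 1.49. In tumors it was at 60.6, 79.7 and 76.0 FPKM. The young library was lowest in both tables. Its 5 neighbors had a median of -0.06 in NMN-before minus young GICs, with 0 being 2-fold apart.

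The Snrpn-Ndn domain, the mouse counterpart of the human Prader-Willi and Angelman region, contained stable and variable members. Ndn, encoding the paternally expressed neuronal protein necdin, was at 3.88 FPKM in the young, 8.25 in the old and 10.1 in the NMN-before GICs, or 175, 283 and 349 fragments. Its NMN-before to young ratio was 2.60, with a 95% counting interval from 2.17 to 3.15 that covers counting error only. Old against young the ratio was 2.12 (1.75 to 2.57), a log2 difference of 0.92 that lay just under the 2-fold rule. In tumors Ndn was at 7.54, 8.64 and 10.1 FPKM, the same order of the 3 libraries with smaller differences.

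Magel2, the neighbor of Ndn and known in the hypothalamus, was low in every library but uneven among the tumors. It was at 0.0591 FPKM in the young, 0.492 in the old and 0.0238 in the NMN-before tumor, or 4, 25 and 2 fragments. The old to young ratio was 8.33 (counting interval 2.87 to 32.9) and the NMN-before to old ratio was 0.0483 (0.00550 to 0.192). The 5 hypothalamus markers did not move together: they summed to 14.8 FPKM in the young, 22.4 in the old and 8.67 in the NMN-before tumor, and of the 4 past the filter, 2 were higher and 2 lower in old minus young. The peptide genes Oxt and Avp were at 9.56 and 3.30 FPKM in the old tumor. Oxt was listed at 0 in the other two tumors, and Avp was at 0.310 FPKM in the young tumor and at 0.127 in the NMN-before one. Agrp (9.83, 6.25 and 5.67 FPKM) and Pomc (4.64, 2.88 and 2.75 FPKM), feeding-related peptide genes, were highest in the young tumor. Calcr, the calcitonin receptor gene of the Peg10-Sgce domain, was at 0.322 FPKM in the old tumor and listed at 0 in the other two. The 5 choroid plexus markers summed to 25.4, 155 and 10.2 FPKM, most of it Ttr (24.0, 151 and 9.01 FPKM), and the 3 past the filter were all higher in the old than in the young tumor. The part of hypothalamic or choroid plexus tissue in the members that were highest in the old tumor, Dlk1, Nnat and Peg3 among them, was not tested.

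The other Snrpn-Ndn members were close between libraries. The Snrpn row, which also names Snurf, Snhg14 and 2 further genes, was at 149, 147 and 185 FPKM in tumors and 45.4, 46.7 and 48.6 in GICs. Ube3a, the ubiquitin ligase lost in Angelman syndrome and silenced on the paternal chromosome in neurons, was at 29.9, 28.2 and 28.9 FPKM in tumors. In GICs Ube3a was at 65.6, 55.9 and 51.1. Peg12 and Mkrn3, both paternally expressed, differed by at most 0.25 log2 units in tumors; in GICs Mkrn3 differed by at most 0.16, and Peg12 was at 16.8, 23.4 and 23.5 FPKM.

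The Peg10-Sgce domain on chromosome 6 is driven by a promoter region shared by its paternal genes Peg10, a retrotransposon-derived gene, and Sgce, the epsilon-sarcoglycan gene mutated in myoclonus dystonia. In GICs the 2 genes went apart: Peg10 was at 70.0, 64.5 and 57.8 FPKM, while Sgce was at 22.0, 22.8 and 36.0 FPKM. The Sgce to Peg10 ratio was 0.314 in the young, 0.354 in the old and 0.622 in the NMN-before GICs. Ppp1r9a, encoding the actin-binding protein neurabin, followed Sgce at 11.4, 11.1 and 20.1 FPKM. None of these genes was 2-fold apart, and Casd1 stayed between 11.6 and 12.3 FPKM. In tumors, Peg10 (up to 23.1 FPKM), Sgce (28.6 to 34.6), Casd1 (9.58 FPKM or more) and Ppp1r9a (15.9 to 17.7) each differed by at most 0.26 log2 units. Asb4, a maternally expressed gene of the ankyrin repeat and SOCS box family, was at 1.52, 1.14 and 3.24 FPKM in tumors, 0.99 log2 units higher in NMN-before than in old.

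Some glial marker genes were also highest in the NMN-before GICs. The 6 oligodendrocyte precursor markers summed to 248 FPKM in the young, 291 in the old and 684 in the NMN-before GICs, and 2 of the 4 past the filter were 2-fold higher in NMN-before minus old. The 8 astrocyte markers summed to 154, 172 and 394 FPKM, with 2 of the 7 past the filter being 2-fold higher. The sums rest on Olig1, Olig2, Slc1a3 and Aldoc; Gfap was highest in the young GICs (11.4, 3.21 and 6.41 FPKM), as were Sox10 and Aqp4 at under 1 FPKM, and Pdgfra and Aldh1l1 were highest in the old ones. Of the 4 oligodendrocyte markers past the filter, 1 was higher and 3 were lower in NMN-before minus old, with a median of -0.38. No marker of these 3 lists was at 0 in all 3 GICs. The part of these cell states in the levels of Cd81, Tssc4, Nap1l5, Sgce and Slc38a4 was not tested.

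**Figure D4:**
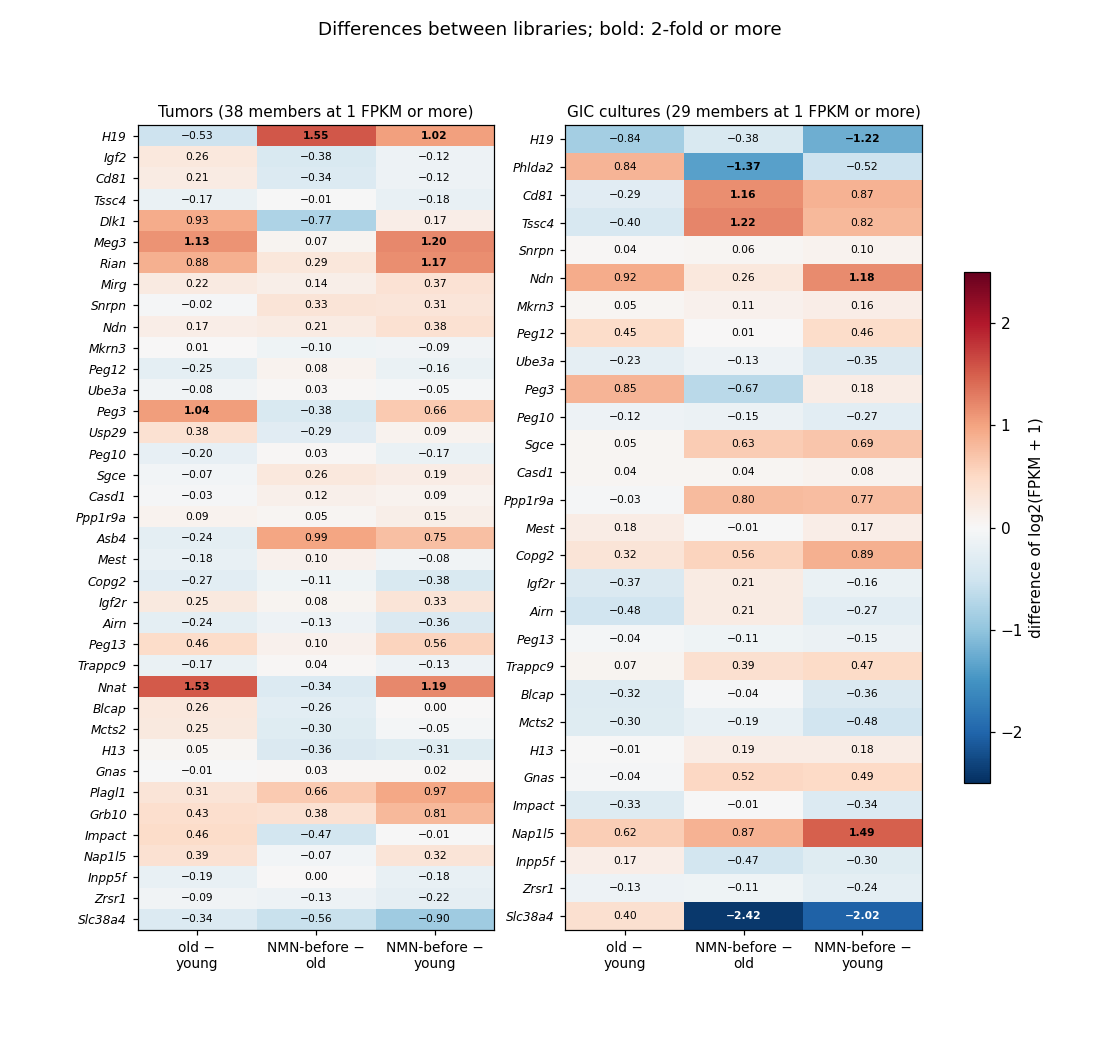
Differences of log2(FPKM + 1) between libraries for the 38 imprinted genes past the filter in tumors and the 29 past it in GICs, 1 row per gene and 1 column per comparison; red is higher and blue lower in the first-named library, and bold marks 2-fold or more. The first and second columns both use the old library; Slc38a4 has the lowest value, -2.42, in NMN-before minus old GICs.

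Sense and antisense or nested pairs were compared within domains. Igf2r, the maternally expressed receptor that clears IGF2, was at 3.03, 3.80 and 4.06 FPKM in tumors. Airn, the paternal antisense RNA that silences Igf2r, was at 8.26, 6.87 and 6.21 FPKM. Counting intervals of each gene's ratios between tumors all include 1. For old to young they were 0.715 to 2.15 for Igf2r and 0.546 to 1.23 for Airn. They rest on median annotated transcript lengths of 803 bases for Igf2r and 688 for Airn. Longer transcripts would give narrower intervals, so these intervals do not settle whether the tumors have an order. The Airn to Igf2r ratio was 2.73 in the young, 1.81 in the old and 1.53 in the NMN-before tumor. In GICs both were highest in the young library (14.5 and 14.6 FPKM) and lowest in the old one (11.0 and 10.1 FPKM), and the ratio was 0.925 in the NMN-before library. The pair overlaps on opposite strands, so counting without strand would mix them.

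Peg13, a paternal non-coding RNA within Trappc9, was at 13.5, 18.9 and 20.3 FPKM in tumors, while Trappc9 was at 15.7, 13.9 and 14.3. The Peg13 to Trappc9 ratio was 0.854 in the young, 1.36 in the old and 1.42 in the NMN-before tumor. In GICs that ratio was 0.443, 0.403 and 0.273. The young tumor thus had the lowest ratio among tumors and the young GICs the highest among GICs. H13, a signal peptide peptidase, was at 91.1, 94.3 and 73.3 FPKM in tumors and at 118, 117 and 134 in GICs. Mcts2, a retrogene within H13, was between 2.34 and 3.68 FPKM over all 6 libraries.

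Mest and Copg2 lie on opposite strands of chromosome 6 and overlap at their ends, so counting without strand would mix them there. Mest, a paternally expressed gene of mesoderm and of growing tissue, was at 55.2, 48.5 and 52.1 FPKM in tumors and at 280, 318 and 316 in GICs. Copg2, a coat protein gene, was at 11.5, 14.6 and 22.1 FPKM in GICs, 0.89 log2 units higher in NMN-before than in young. In tumors Copg2 was at 20.7, 16.9 and 15.6 FPKM, the reverse order.

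Gnas, which encodes the stimulatory G protein alpha subunit and several imprinted isoforms, was the most abundant member in tumors, at 552, 550 and 560 FPKM. In GICs it was at 403, 393 and 566 FPKM. Plagl1, a paternally expressed zinc-finger regulator of growth genes, was at 0.875, 1.33 and 2.68 FPKM in tumors. Grb10, an adaptor that dampens insulin and growth factor signaling, was at 1.29, 2.09 and 3.02 FPKM. Both were lowest in the young and highest in the NMN-before tumor, 0.97 and 0.81 log2 units apart. The NMN-before to young counting interval of Plagl1, 0.953 to 12.4 at a median annotated length of 452 bases, includes 1. For Grb10 it was 1.21 to 4.16, at 940 bases. The intervals of both genes with the old tumor include 1. They were 0.770 to 3.29 for old to young and 0.793 to 2.52 for NMN-before to old in Grb10. For Plagl1 they were 0.358 to 8.38 and 0.621 to 6.32. Both genes were under 1 FPKM in GICs. Impact, an inhibitor of GCN2 kinase activation, was at 28.1, 38.9 and 27.9 FPKM in tumors and at 21.6, 17.0 and 16.9 in GICs. The Inpp5f row was between 29.4 and 33.5 FPKM in tumors and at 47.5, 53.5 and 38.4 in GICs, Zrsr1 was between 3.98 and 10.4 FPKM over all 6 libraries, and Zdbf2 was under 1 FPKM in all of them.

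**Figure D5:**
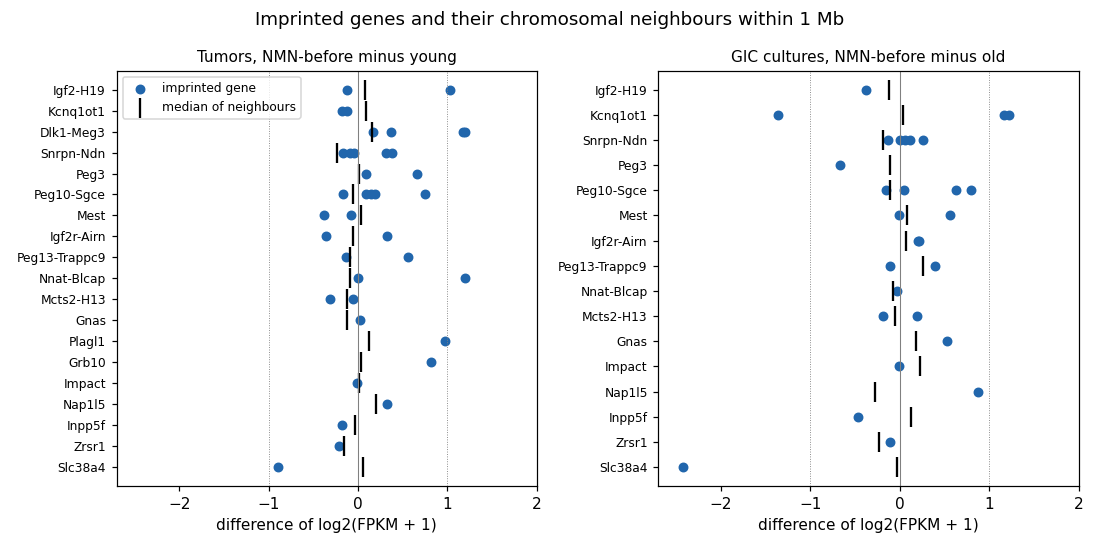
Difference of log2(FPKM + 1) of each imprinted gene past the filter (points, 1 row per domain or single locus) and the median over the other rows within 1 Mb (vertical ticks), for NMN-before minus young tumors (left) and NMN-before minus old GICs (right); dotted lines mark 2-fold. H19, Meg3, Rian and Nnat lie past the right line in tumors while the medians of their neighbors lie between -0.09 and 0.15.

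Members differed in where they were detected. Past the filter in both tables were 28 members, in tumors only 10, in GICs only 1 (Phlda2) and in neither 8. The 10 were Igf2, Dlk1, Meg3, Rian, Mirg, Usp29, Asb4, Nnat, Plagl1 and Grb10, and none of them exceeded 0.376 FPKM in GICs. They made up 26.3% of the 38 members past the tumor filter, against 14.7% of all tumor rows matched between tables (2095 of 14291). Of the 10, 8 were lowest in the young tumor, against 53.8% of all tumor-only rows. Dlk1, Usp29 and Plagl1 were under 1 FPKM in the young tumor and passed only through other tumors, so the filter partly sets their order. Meg3, Rian, Mirg and Dlk1 belong to 1 domain and are not separate cases. The young tumor also had the lowest summed neuron markers, and the summed microglia markers were 50.5 FPKM there against 79.7 in the old and 74.3 in the NMN-before tumor. The part of neurons or microglia in the levels of these members was not tested.

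Grouped by the allele that is known to be expressed, the members had these medians. In tumors, the 20 paternally expressed members past the filter had median differences of 0.21 (old minus young), -0.11 (NMN-before minus old) and 0.04 (NMN-before minus young). The 9 maternally expressed members had medians of 0.05, 0.08 and 0.37. All tumor rows past the filter had medians of -0.01, 0.01 and -0.01. The 0.37 is the value of Mirg, whose NMN-before to young counting interval, 0.887 to 2.41, includes 1. Meg3, Rian and Mirg, all among the 9, belong to 1 domain and are not separate cases. In GICs, the 15 paternal members had medians of 0.05, -0.01 and 0.10, and the 6 maternal members -0.12, 0.03 and -0.26.

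Imprinted genes outside the 47 were taken from a list of 55, of which 37 rows passed the filter in tumors. Old minus young, 1 row was 2-fold lower (1.0% of all rows) and 0 were higher (1.6%). NMN-before minus old, 3 of 37 were higher (1.86% of all rows) and 0 lower (1.25%), a count that was 7 and 6 with pseudocounts of 0.1 and 0.5 and 5 under TPM. NMN-before minus young, 2 were higher (2.79%) and 0 lower (0.977%), and the first count was 8, 5 and 5 under the same settings and 1 with a filter at 5 FPKM. Cdkn1c, the maternally expressed cell cycle inhibitor of the Kcnq1ot1 domain, was at 39.0 FPKM in the young, 8.53 in the old and 21.1 in the NMN-before tumor, lowest in the old one. Dcn, the proteoglycan decorin and also 1 of the fibroblast markers, was at 2.94, 2.12 and 6.20 FPKM. Ddc, the decarboxylase of dopamine and serotonin synthesis, was at 3.13, 3.06 and 9.97 FPKM. Kcnk9, a maternally expressed potassium channel gene of neurons next to Peg13, was at 0.375, 0.833 and 1.82 FPKM. Cdkn1c, H19 and the fibroblast sum were all lowest in the old tumor. Cdkn1c was highest in the young tumor, whereas H19 and the fibroblast sum were highest in the NMN-before one. The part of fibroblasts in the Cdkn1c level was not tested.

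In GICs, 28 rows of that list passed. Old minus young, 2 were 2-fold lower (1.58% of all rows) and 0 higher (1.23%); the lower count was 5 and 4 with pseudocounts of 0.1 and 0.5, 4 under TPM and 0 with a filter at 5 FPKM. NMN-before minus old, 0 passed in either direction (3.26% and 2.3% of all rows), and with a pseudocount of 0.1 there was 1 higher and 2 were lower. NMN-before minus young, 4 of 28 were lower (3.04% of all rows) and 1 higher (3.58%); 0 were lower with a filter at 5 FPKM. Cobl, an actin nucleator, was at 1.24, 0.119 and 0 FPKM. Begain, a postsynaptic protein gene near Dlk1, was at 1.98, 0.563 and 0.214 FPKM. Both were highest in the young GICs. Gatm, the first enzyme of creatine synthesis, was the 1 that was higher, at 19.8, 24.9 and 49.3 FPKM. Tnfrsf23, a decoy receptor gene, was at 3.97, 2.83 and 1.46 FPKM, and 1 row of Snhg14 was at 1.04 FPKM in the young GICs and listed at 0 in the other two.

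Of a list of 36 genes that set or keep imprints, 31 passed the filter in each table, and 0 were 2-fold apart in any of the 6 comparisons. Since between 0.977% and 3.58% of all rows passed in a given direction, a count of 0 among 31 is near the background. Zfp57, whose protein binds methylated TGCCGC, was at 27.3, 29.6 and 22.1 FPKM in tumors and between 18.8 and 20.9 in GICs. Trim28, its corepressor partner, was at 138, 127 and 130 FPKM in tumors and at 202, 218 and 153 in GICs. Dnmt1, the maintenance DNA methyltransferase, was at 40.7, 33.3 and 36.2 FPKM in tumors and at 90.3, 91.3 and 105 in GICs. DNA methylation itself was not measured.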

How the data were processed

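Total RNA of 6 libraries, 1 per group, was depleted of ribosomal RNA and sequenced from stranded libraries as read pairs on an Illumina HiSeq instrument, per the labels' protocols. The authors deposited FPKM values (fragments scaled by transcript length and library size), in 1 table for tumors and 1 for GICs. Per the submitters' processing notes, the build was GRCm38, and the tools named, with no roles given, were Cuffdiff, Cufflinks 2.2.1, STAR 2.5.4b, Trim Galore 0.6.2 and bcl2fastq 1.8.4. The sources used here do not give the annotation, the normalization mode or the use of strand.

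Rows were matched by symbol after splitting joint names at commas; 7 members had rows shared with other genes, and 34 had loci shared with other rows. Differences used log2(FPKM + 1) and rows with a highest value of at least 1 FPKM. No test was possible with 1 library per group. Members named were those 2-fold apart, those of their domains and those at 50 FPKM or more. Plagl1, Grb10, Impact, Igf2r, Airn, Peg13 and Trappc9 fell outside this rule and were named after their values were seen. Sgce, Casd1, Ppp1r9a, Asb4, Calcr, Copg2 and Mcts2 also fell outside it. They were named beside Peg10, Mest or H13, the members of their domains at 50 FPKM or more. Others appear mostly as ranges. The members and lists were chosen with earlier results of these data known. Depth came from low FPKM values of single-transcript genes of 1500 to 12000 bases, of which 93.8% to 96.3% were whole fragments within 0.05, a method tested on simulated data. Fragment counts used the median GENCODE transcript length and are approximate for members with several transcripts; intervals are 95% exact binomial intervals of the count ratio and cover counting error only. Gene coordinates are from GENCODE M21. Alternatives changed the pseudocount, filter, scaling and shared rows. Python 3.11.15, numpy 2.4.6, pandas 2.3.3, scipy 1.17.1 and matplotlib 3.10.9 were used.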

Additional observations from a re-analysis of the deposited data

Results flagged for a closer look

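Among members past the filter in both tables, 4 differences in 3 genes had opposite signs in tumors and GICs and reached 1 log2 unit in 1 of the tables; with 1 library per group, the difference between tables was not tested. The GIC difference minus the tumor difference of Cd81, NMN-before minus old, was 1.499 (1.16 in GICs, -0.34 in tumors). For Tssc4 in the same comparison it was 1.22 (1.22 in GICs, -0.01 in tumors), where the tumor value is close to 0 and is not a difference the other way. For H19 it was -1.93 in NMN-before minus old (-0.38 in GICs, 1.55 in tumors). In NMN-before minus young it was -2.24 for H19 (-1.22 in GICs, 1.02 in tumors). The NMN-before to old ratio of H19 in GICs, at 0.342 and 0.747 FPKM, has a counting interval from 0.122 to 2.24. That interval includes 1, so the direction of H19 in this GIC comparison is not settled.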

How the results depend on the processing

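No direction of a difference past 2-fold reversed under another pseudocount (0.1 or 0.5), median-of-ratios scaling or rescaling to TPM; the counts below did move, since several members lie near the 2-fold rule or near the filter. In tumors, NMN-before minus old, the count of members 2-fold higher went from 1 to 2 at pseudocounts of 0.1 and 0.5 and under TPM, and to 0 without rows shared by several genes (H19 is such a row); 1 was lower at 0.1. NMN-before minus young, 7 were higher at 0.1 and 1 without shared rows, and 1 was lower at 0.1. In GICs, old minus young, 3, 2 and 1 members were higher at 0.1, at 0.5 and under TPM, and 1 was lower under each. NMN-before minus old, 1 was lower with a filter at 5 FPKM, and the median was 0.20. NMN-before minus young, 1 was lower with that filter and 1 without shared rows, and the median was -0.036 with no filter. Dlk1 in old minus young tumors was 0.93 with a pseudocount of 1, 1.21 with 0.5 and 1.61 with 0.1. Depth limits those members under 1 FPKM that rest on few fragments. Kcnq1ot1, with an annotated length of 93092 bases, is an exception. It rests on 395 to 722 fragments in tumors and 435 to 629 in GICs.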
